A study of Mus musculus with 20 samples.

Results

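Nrf2, encoded by Nfe2l2, is the transcription factor that drives the antioxidant and detoxification programme of most epithelia, and Keap1 is the sensor that holds it in check. In unstressed cells Keap1 hands the Nrf2 protein to a ubiquitin ligase and it is degraded. When oxidants or electrophiles modify cysteines of Keap1, Nrf2 accumulates, pairs with a small Maf protein and binds antioxidant response elements near its targets. In the epididymis this defence matters because spermatozoa, which make little new protein, mature and are stored in the lumen next to the epithelium.

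Described here are Nfe2l2, Keap1 and 8 genes known as Nrf2 targets (Hmox1, Nqo1, Gclc, Gclm, Txnrd1, Srxn1, Slc7a11 and Osgin1). They were chosen by symbol, and all 10 had a single row in both abundance tables, out of 21509 protein-coding genes. The cells were DC2, an immortalised line of mouse distal caput principal cells, so every library came from 1 established line and none from intact epididymis. In the flow experiment, 6 libraries came from cells held under a shear stress of 1 dyne/cm2 for 3 h in microfluidic channels and 6 came from static channels. In the silencing experiment, 4 libraries came from cells transfected with a mixture of siRNAs against Ift88, an intraflagellar transport gene needed to build the primary cilium, and 4 from cells given scrambled control siRNA. Per the study's methods the silenced and control cells were examined under flow, which the sample labels do not state.

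Values are TPM, kallisto's estimate of transcript abundance scaled for transcript length and to the same total in each library, so levels of different genes can be set side by side. The read depth of each library cannot be read from these values and the study's methods state only a mean over samples, while the number of genes above 0 TPM ran from 15292 to 16682 per library. Libraries of the flow experiment stood apart by replicate number: the first principal component (34.4% of the variance) placed replicates 1 to 3 of both groups on one side of replicates 5 and 6, with replicates 4 between them. No label names a batch. Flow replicate 6 has a title that names flow and a treatment field that names static conditions, and it was kept as flow. Among markers of principal cells or epididymal epithelium in the flow experiment, Krt18 ran from 23.2 to 111 TPM, Lcn8 was at 0 in all libraries, and Gpx5 did not exceed 0.0489 TPM. The leukocyte markers Ptprc and Adgre1 stayed at or under 0.0878 TPM, while Cd68, which lysosomes of other cells also carry, ran from 10.1 to 98.9 TPM over both experiments.

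The antioxidant response element, the sequence Nrf2 and small Maf proteins recognise, has the core TGACNNNGC, and the related AP-1 element is TGANTCA. Both were searched on both strands in RefSeq promoter windows (GRCm38.p6, 250 bases before to 50 after each transcript start), which were at hand for 8 of the 10 genes and not for Hmox1 and Gclc. The antioxidant core was found in 4 of the 10 windows of these genes, 1 each in Nfe2l2, Gclm, Txnrd1 and Srxn1 (4 of 8 genes), while 12.4% of all windows and 14% of all genes with a window held it. The AP-1 element was found in Srxn1, where it occurred at 2 positions, and in Osgin1, in 2 of the 10 windows (2 of 8 genes), against 7.81% of all windows and 8.97% of all genes with a window. The stretches before the transcript start are shown so that each match can be read in its surroundings, with the matched letters in capitals. In Gclm and Txnrd1 the match lies on the opposite strand, so the capitals read as its reverse complement, and the core in Srxn1 lies after the transcript start and is not shown. Txnrd1 has several annotated starts, and the stretch shown belongs to one of them. By GENCODE M21 the Txnrd1 and Osgin1 stretches lie in introns of those genes, the Nfe2l2 stretch overlaps an exon of E030042O20Rik, and the Gclm and Srxn1 stretches lie outside annotated genes. No match of one motif overlapped a match of the other.
Nfe2l2 (chr2:75704865-75704913, minus strand): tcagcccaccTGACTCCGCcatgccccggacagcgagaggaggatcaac
Gclm (chr3:122245393-122245461, plus strand): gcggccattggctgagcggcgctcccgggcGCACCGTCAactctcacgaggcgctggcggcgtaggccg
Txnrd1 (chr10:82859084-82859152, plus strand): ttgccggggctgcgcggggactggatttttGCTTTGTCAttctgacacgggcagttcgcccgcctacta
Srxn1 (chr2:152105392-152105515, plus strand): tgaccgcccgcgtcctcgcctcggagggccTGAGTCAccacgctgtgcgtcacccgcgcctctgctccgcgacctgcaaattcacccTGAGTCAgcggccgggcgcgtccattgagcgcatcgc
Osgin1 (chr8:119437020-119437086, plus strand): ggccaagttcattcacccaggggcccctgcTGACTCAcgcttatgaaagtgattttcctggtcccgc
A match describes letters in a window and says nothing of binding in these cells.

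Under static conditions the genes ranked from 289 to 11481 among all genes by their mean. Txnrd1, the cytosolic thioredoxin reductase, was the most abundant at 464 ± 64.4 TPM (SD, n = 6). Gclm, the modifier subunit of the ligase that makes the glutathione precursor, followed at 200 ± 17.9 TPM, and its libraries did not overlap those of Txnrd1 above or Hmox1 below it. Hmox1 (haem oxygenase 1, 112 ± 36.9 TPM) and Srxn1 (sulfiredoxin, 94.0 ± 12.2 TPM) came next and overlapped each other. Keap1 (50.0 ± 3.89 TPM), Gclc, the catalytic subunit of the same ligase (48.2 ± 3.97 TPM), and Nfe2l2 itself (39.7 ± 5.82 TPM) each overlapped their neighbour in the order. Nqo1, a quinone reductase (21.1 ± 5.86 TPM), and Osgin1, an oxidative stress-induced growth inhibitor (20.1 ± 2.78 TPM), could not be ordered either. Slc7a11, the cystine carrier that feeds glutathione synthesis, was lowest at 0.923 ± 0.264 TPM. The modifier subunit Gclm was thus listed at a higher level than the catalytic subunit Gclc in every static library, with no Gclm value under 170 TPM and no Gclc value over 53.0 TPM.

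The first comparison asked whether the pathway responded to shear stress. No member passed the test: of the 9 members averaging at least 1 TPM, 0 were called with limma on log2(TPM + 1) at an adjusted p under 0.05 and more than 1.5-fold, and 0 of 9 were under 0.05 before adjustment. Over all 11388 genes tested, 0.105% were called (12 genes, all higher under flow) and 3.85% were under 0.05 before adjustment. The number of genes called was 5 to 87 with 1 library left out and 0 with flow replicate 6 as static. Within the pathway 4 members had a positive and 5 a negative change, with a median log2 fold change of -0.02 beside -0.03 over all genes. Over all genes 4415 changes were positive and 6973 negative. The adjusted p was 0.998 for each of the 9. Equally numbered flow and static libraries deviated together, so the number was also entered as a block (a term for the pair), and then 68 genes (0.597%) were called and still 0 members. With the block, 2 of 9 members were under 0.05 before adjustment, against 11.1% of all genes.

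**Figure D1:**
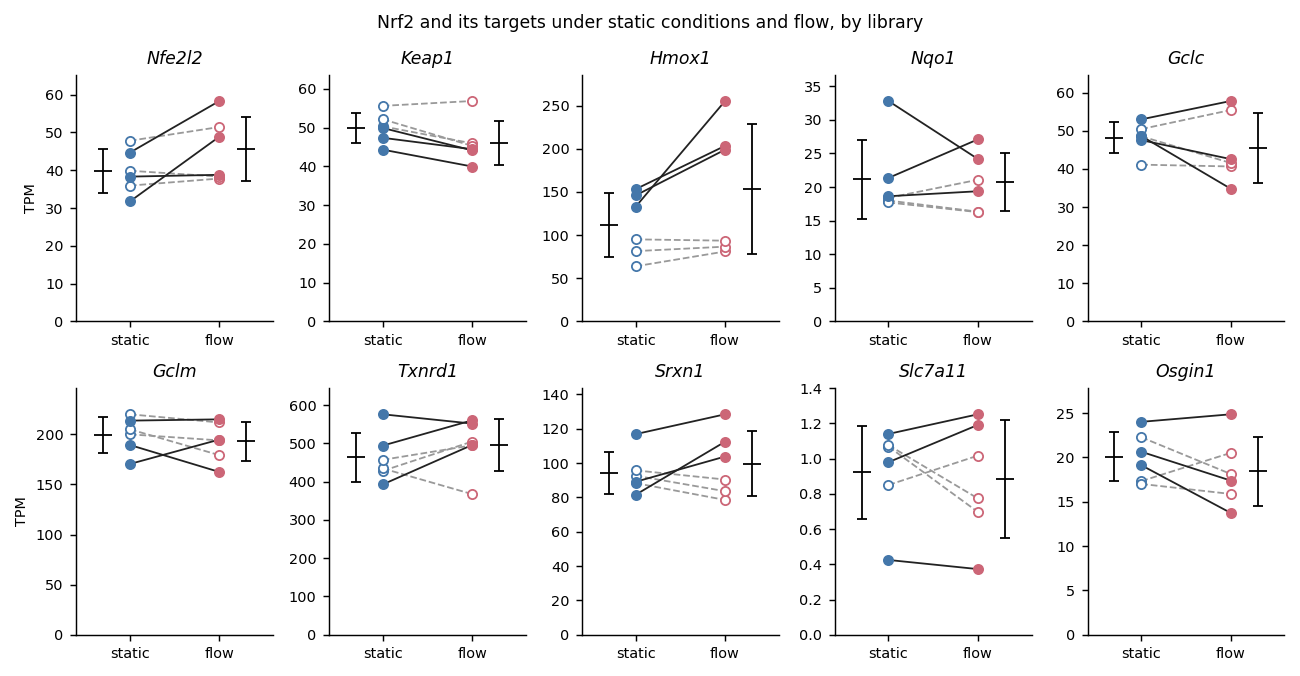
TPM of each gene (vertical axes, linear, from 0) in 6 static (blue) and 6 flow (red) libraries of the flow experiment, with lines joining equally numbered libraries. Open circles and dashed lines are replicates 1 to 3, filled circles and full lines replicates 4 to 6, and the black bars give the mean ± SD of each group. The groups overlapped for every gene, and Hmox1 separated into a lower set (replicates 1 to 3) and an upper set (replicates 4 to 6).

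Nfe2l2 (chromosome 2, 75675513 to 75704641 on GRCm38, GENCODE M21) stood at 37.8, 51.4, 38.3, 38.8, 58.3 and 48.9 TPM in flow replicates 1 to 6. In static replicates 1 to 6 it stood at 35.9, 47.8, 39.9, 38.3, 44.7 and 31.7 TPM. It was higher under flow in 5 of 6 pairs, by the most in replicates 5 and 6, and the groups overlapped. The log2 fold change was 0.19 (SE 0.12, 95% interval -0.08 to 0.45), and the replicate block narrowed the interval to between -0.0027 and 0.38 (limma, adjusted p = 0.455). Without the block it ran from 0.11 to 0.24 with 1 library left out, and it was -0.0068 with library weights. Because Nrf2 is controlled mainly through its protein, the transcript level does not measure its activity, and the protein was not measured here.

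Keap1 (chromosome 9, 21229730 to 21239361) had the opposite sign in most pairs. Under flow it stood at 46.0, 56.9, 45.3, 44.4, 44.1 and 40.0 TPM, and under static conditions at 50.3, 55.6, 52.2, 47.4, 49.9 and 44.3 TPM. It was lower under flow in 5 of 6 pairs and higher in pair 2, and its within-pair changes lay between -0.20 and 0.03 on the log2 scale, the narrowest span of the 9 members. The log2 fold change was -0.12 (SE 0.08), and with the block -0.12 (SE 0.05, limma adjusted p = 0.449, under 0.05 before adjustment).

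Hmox1 (chromosome 8, 75093621 to 75100589), which opens the haem ring to yield biliverdin, carbon monoxide and iron, had the largest change of the pathway and also the widest standard error. In flow replicates 1 to 6 it stood at 81.1, 86.7, 93.6, 203, 255 and 199 TPM. In static replicates 1 to 6 it stood at 63.9, 81.5, 95.1, 153, 133 and 146 TPM. Replicates 4 to 6 were above replicates 1 to 3 in both groups, and flow was above static in 5 of 6 pairs, the exception being pair 3. The mean under flow was 1.37 times the static mean, with a log2 fold change of 0.37 (SE 0.31, 95% interval -0.30 to 1.03). Comparing within pairs left the change at 0.37 and cut the standard error to 0.10 (interval 0.14 to 0.59, limma adjusted p = 0.221, under 0.05 before adjustment). Without the block, the log2 fold change was 0.13 with flow replicate 6 grouped by its treatment field instead of its title. Also without the block, leaving out 1 library gave 0.19 (without flow replicate 5) to 0.52 (without flow replicate 1).

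The subunits of glutamate-cysteine ligase and the cystine carrier, which together set the glutathione supply, showed small differences. Gclc (chromosome 9, 77754535 to 77794485) ran from 34.8 to 57.8 TPM under flow (median 42.1) and from 41.1 to 53.0 TPM under static conditions (median 48.6). Gclm (chromosome 3, 122245557 to 122270732) ran from 162 to 215 TPM under flow (median 194) and from 170 to 220 TPM under static conditions (median 202). Each was higher under flow in 2 of 6 pairs. The static range of Gclc lay inside its wider flow range, and the 2 ranges of Gclm overlapped over most of their length. The log2 fold changes were -0.10 (95% interval -0.35 to 0.14) for Gclc and -0.05 (95% interval -0.23 to 0.12) for Gclm, and each turned positive (0.03 and 0.04) with flow replicate 6 counted as static. Slc7a11 (chromosome 3, 49892526 to 50443614) stood between 0.373 and 1.25 TPM under flow and between 0.425 and 1.14 TPM under static conditions, below the 1 TPM mean needed for testing.

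Among the thiol-reducing enzymes, Txnrd1 (chromosome 10, 82833951 to 82897712) ran from 368 to 561 TPM under flow (median 501) and from 393 to 576 TPM under static conditions (median 446). It was higher under flow in 4 of 6 pairs, with a log2 fold change of 0.09 (SE 0.11). With 1 library left out its change ran from 0.05 (without static replicate 5) to 0.18 (without flow replicate 2). Srxn1 (chromosome 2, 152105516 to 152111376), which repairs overoxidised peroxiredoxins, stood at 78.5, 83.6, 90.4, 104, 112 and 128 TPM in flow replicates 1 to 6. Under static conditions it stood at 88.3, 92.6, 95.7, 89.0, 81.5 and 117 TPM. Flow was below static in pairs 1 to 3 and above it in pairs 4 to 6, and over all pairs the log2 fold change was 0.07 (SE 0.12).

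Nqo1 (chromosome 8, 107388225 to 107403206), a widely used readout of Nrf2 activity, ran from 16.3 to 27.1 TPM under flow (median 20.2) and from 17.7 to 32.8 TPM under static conditions (median 18.5). It was higher under flow in 3 of 6 pairs and its log2 fold change was -0.02 (SE 0.16). The highest value, 32.8 TPM, belonged to static replicate 6, and without that library the log2 fold change was 0.11. Osgin1 (chromosome 8, 119434124 to 119446256) ran from 13.7 to 24.9 TPM under flow (median 17.8) and from 17.0 to 24.0 TPM under static conditions (median 19.9). It was lower under flow in 4 of 6 pairs, with a log2 fold change of -0.13 (SE 0.13). For the 9 members tested the 95% intervals without the block reached from -0.41 at the lowest, for Osgin1, to 1.03 at the highest, for Hmox1, so a change of the size required for a call was outside the interval of every member but Hmox1.

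**Figure D2:**
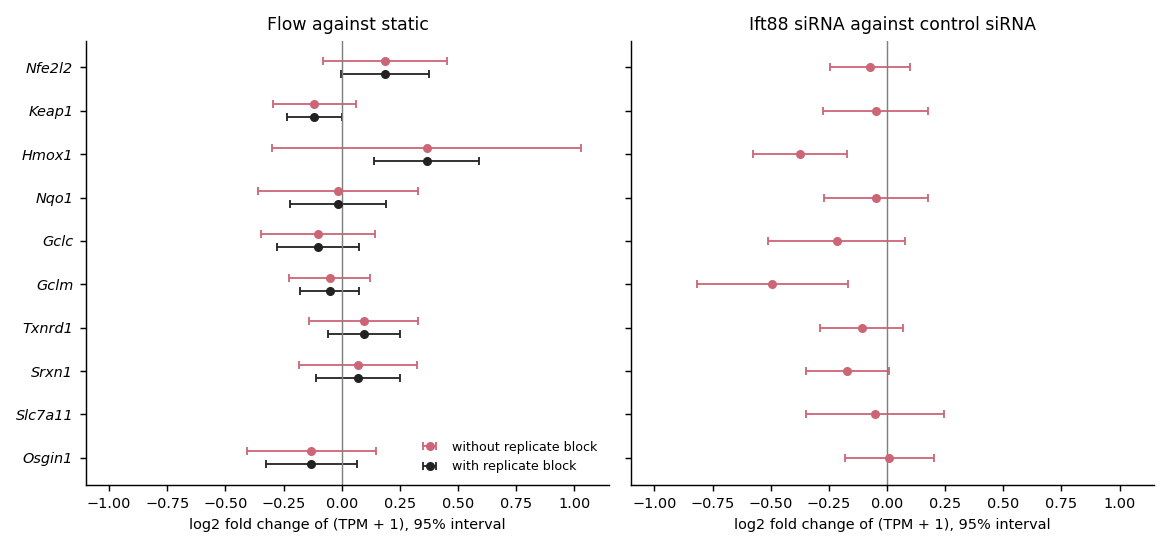
Log2 fold change of (TPM + 1) with its 95% interval from limma for each gene. The left panel compares flow with static (red without and black with the replicate block, 6 libraries a group) and the right panel Ift88 with control siRNA (4 a group). Slc7a11 has no value on the left because it averaged under 1 TPM. The interval of Hmox1 spans 0 without the block and lies above 0 with it, and those of Hmox1 and Gclm lie below 0 after silencing.

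Because the libraries stood apart by replicate number, the response was also read within replicates 1 to 3 and within replicates 4 to 6. This split was taken from an earlier look at these data, and its origin was not tested. In replicates 1 to 3 no member was under 0.05 before adjustment (1.66% of all genes were), and Hmox1 averaged 87.1 ± 6.27 TPM under flow and 80.2 ± 15.6 TPM under static conditions (n = 3 each). In replicates 4 to 6 it averaged 219 ± 31.4 TPM under flow and 144 ± 10.3 TPM under static conditions, 1.52 times as much. Every one of these 3 flow libraries was above all 3 static libraries, which held for 1 of the 9 members and for 3.93% of all genes in these replicates. The log2 fold change of Hmox1 there was 0.60 (SE 0.11, 95% interval 0.33 to 0.86, limma adjusted p = 0.122). It was the only member under 0.05 before adjustment in replicates 4 to 6, against 6.67% of genes, and 0 members were called, against 0.49% of genes.

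Srxn1 and Hmox1 were the members whose flow response differed most between the replicate sets. In replicates 1 to 3 Srxn1 averaged 84.2 ± 5.96 TPM under flow and 92.2 ± 3.73 TPM under static conditions, and in replicates 4 to 6 it averaged 115 ± 12.5 and 95.8 ± 18.6 TPM. The interaction, the response in replicates 4 to 6 minus that in 1 to 3, was 0.40 for Srxn1 (SE 0.18) and 0.46 for Hmox1 (SE 0.19) on the log2 scale, and the limma adjusted p was 1.00 for both. With the replicate block the limma adjusted p was 0.636 for Srxn1 and 0.869 for Hmox1. These 2 of 9 members were under 0.05 before adjustment, against 2.09% of all genes without and 4.54% with the block, and 0 members passed the adjusted threshold in limma, against 0% of genes without and 0.158% with it. The difference between the replicate sets in these responses is therefore not shown at the adjusted threshold.

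**Figure D3:**
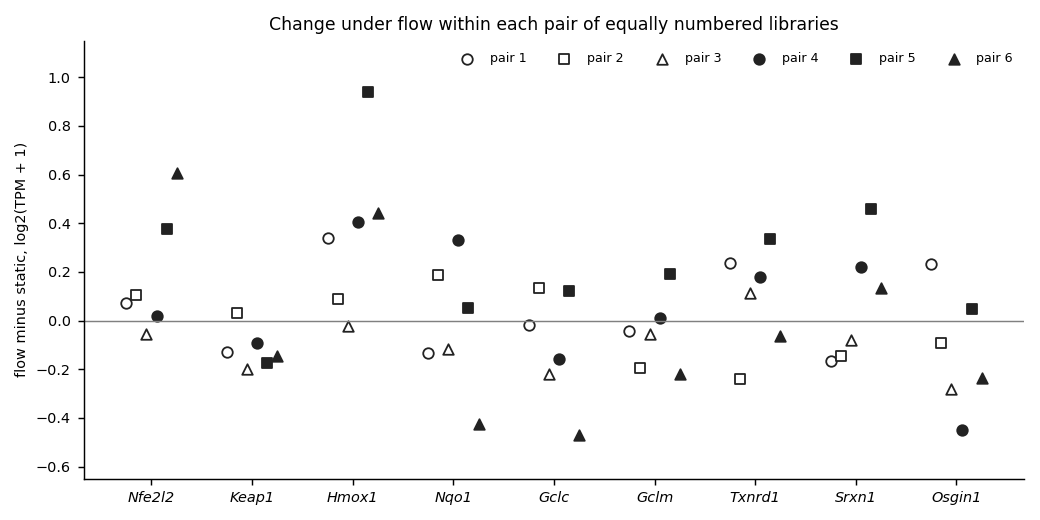
Flow minus static change in log2(TPM + 1) for each of the 6 pairs of equally numbered libraries (open symbols pairs 1 to 3, filled symbols pairs 4 to 6) in the 9 genes averaging at least 1 TPM. Srxn1 lies below 0 in pairs 1 to 3 and above 0 in pairs 4 to 6, Hmox1 is above 0 in 5 of 6 pairs, and Keap1 is below 0 in 5 of 6.

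The replicate set itself went with a larger difference in Hmox1 than flow did. With flow as a second term, Hmox1 was higher in replicates 4 to 6 than in 1 to 3 by 1.08 on the log2 scale (SE 0.11, limma adjusted p = 0.000363), and all 6 libraries of the one set were above all 6 of the other, as for 8.6% of all genes. Its mean in replicates 4 to 6 was 1.80 times that in replicates 1 to 3 under static conditions and 2.52 times under flow. It was the single member called, 1 of 9, while 3.65% of all genes were called. These p-values take the 12 libraries as independent, although both libraries of each correlated pair lie in the same set. The split was taken from an earlier look at these data, in which the libraries stood apart by replicate number. P-values between the sets, here and for the related genes below, therefore describe that separation and are no independent test of it. With the mean of each pair in place of its 2 libraries (3 values against 3, an alternative chosen after seeing the data), Hmox1 was again higher by 1.08 (SE 0.10, limma adjusted p = 0.0159) and again the single member called, while 0.0878% of all genes were called. Over the 12 libraries Nqo1 came next at 0.37 (SE 0.13, limma adjusted p = 0.0517), and Keap1 was at -0.18 (SE 0.07, limma adjusted p = 0.0785). On pair means the limma adjusted p was 0.160 for Nqo1 (SE 0.14) and 0.253 for Keap1 (SE 0.09). The median of all genes in this comparison was 0.12, and scaling the libraries by the median of their ratios brought it to -0.01. After that scaling Hmox1 was at 0.95 (limma adjusted p = 0.00116), Keap1 at -0.31 (limma adjusted p = 0.0128, under 1.5-fold), and Nfe2l2, Gclc and Osgin1 changed from positive to negative (-0.09, -0.11 and -0.04). The scaled fit also takes the 12 libraries as independent, and scaling was not combined with pair means.

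Genes most like Hmox1 under flow were sought among all genes tested by the Euclidean distance of their 6 within-pair changes in log2(TPM + 1). The nearest 5 were Irs2 at a distance of 0.28, Zfp281 and Chac1 at 0.31, Zfp703 at 0.36 and Sgsm3 at 0.39. Irs2 is an adaptor of the insulin receptor, Zfp281 and Zfp703 are zinc finger proteins, and Chac1 degrades glutathione. Chac1 had a log2 fold change of 0.45, and none of the 5 passed the adjusted threshold without the block (limma adjusted p = 0.78 for Chac1 and 0.998 for the other 4). Likeness here is a description over 6 pairs.

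Around the core set, 7 lists of related genes held 115 symbols, of which 114 were in the table and 99 averaged at least 1 TPM. None of the 99 was called under flow by limma without the block, 3 were under 0.05 before adjustment and higher (2.05% of all genes were) and 1 was lower (1.79% of all genes), and with the block 1 was called (1.01%, beside 0.597% of all genes). That gene was Mafk, a small Maf protein with which Nrf2 binds DNA. It averaged 74.8 ± 21.9 TPM under flow and 44.5 ± 5.84 TPM under static conditions (n = 6 each), with ranges of 47.1 to 110 and 37.5 to 53.1 TPM that overlapped. Its log2 fold change was 0.70, with an adjusted p of 0.0426 in limma with the replicate block (SE 0.13) and 0.156 without it (SE 0.16). Maff, another small Maf protein, had a log2 fold change of 0.61 that was not called (limma adjusted p = 0.113 with the block and 0.862 without). Mafg, named here as the remaining small Maf protein of the list, was not called either, with or without the block. The list of Nrf2 partners and control held 14 positive and 3 negative changes among 17 tested, beside 4415 positive and 6973 negative over all genes. Its median was 0.04, and Btrc, part of a ubiquitin ligase, was its lowest at -0.11.

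The other lists leaned slightly below 0 under flow, as did all genes (6973 of 11388 negative). Glutathione synthesis and use had 5 positive and 18 negative changes (median -0.03), from Mgst2 at -0.32 to Chac1 at 0.45. The thioredoxin and peroxiredoxin system had a median of -0.0038 and reached from Txnip, an inhibitor of thioredoxin, at -0.55 (limma adjusted p = 0.998) to Msra at 0.14. Haem and iron handling ran from the iron exporter Slc40a1 at -0.26 to the transferrin receptor Tfrc at 0.18, and NADPH supply from Idh1 at -0.15 to Mthfd2 at 0.13. Detoxification enzymes had 1 positive and 16 negative changes (median -0.08, from Akr1b7 at -0.40 to Ugdh at 0.10), and the enzymes that make or remove superoxide and hydrogen peroxide had 0 positive and 6 negative ones (from Noxo1 at -0.18 to Nox4 at -0.02). None of the differences in these lists passed the adjusted threshold, with or without the block.

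Between replicates 4 to 6 and 1 to 3, 6 of the 99 related genes (6.06%) were called with the 12 libraries taken as independent, beside 3.65% of all genes, and 0 of the 99 were called by limma on the mean of each pair, beside 0.0878% of all genes. On pair means 22 of the 99 were under 0.05 before adjustment and higher and 4 were lower, beside 22.5% and 2.88% of all genes. Gsta4, a glutathione transferase for lipid aldehydes, was higher by 1.82 on the log2 scale (limma adjusted p = 0.00278, and 0.0556 on pair means) and averaged 16.5 TPM in static replicates 4 to 6 against 4.85 TPM in static replicates 1 to 3. Akr1b3, an aldose reductase, was higher by 1.10 (limma adjusted p = 0.0355, and 0.150 on pair means), with static values in replicates 4 to 6 as far apart as 212 and 1135 TPM. Slc40a1 was lower by 1.51 (a log2 change of -1.51, limma adjusted p = 0.0063, and 0.0714 on pair means), at 6.78 TPM against 16.8 TPM in the static libraries. The other genes called over the 12 libraries, named here after their values were seen, were Gstm2 and Mgst2, which were higher, and Ptgr1, which was lower.

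**Figure D4:**
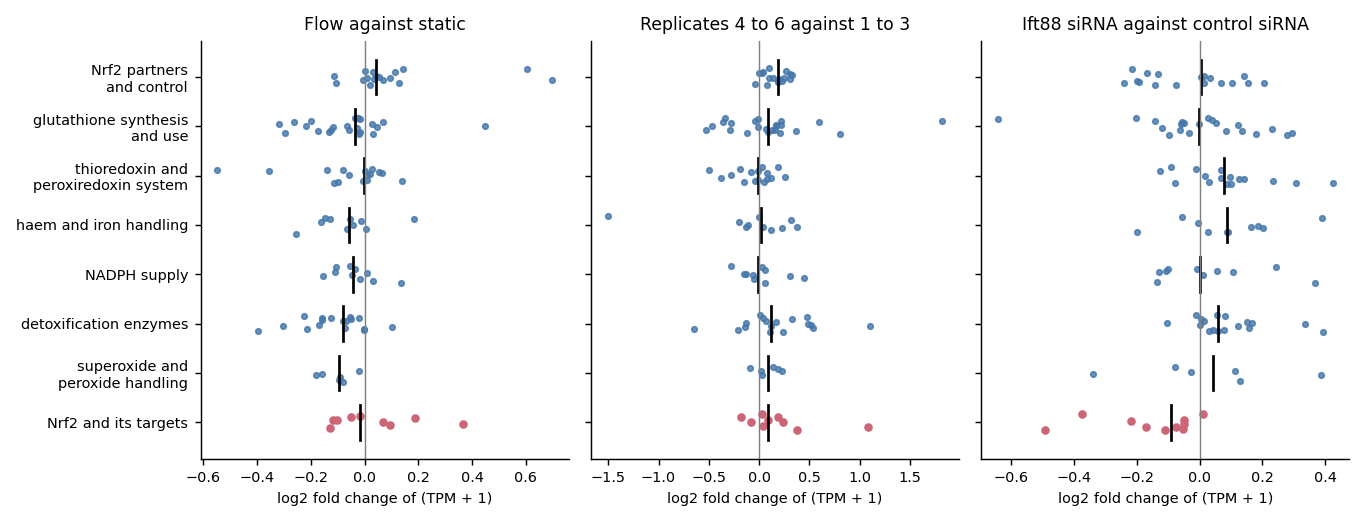
Log2 fold change of (TPM + 1) for each related gene averaging at least 1 TPM (blue points), by list, and for Nrf2 and its targets (red points), in 3 comparisons. Black bars mark list medians, points are spread vertically only for legibility, and the horizontal scales of the panels differ. The medians lie close to 0 under flow, Gsta4 and Slc40a1 stand apart between replicate sets, and the median of Nrf2 and its targets is -0.09 after Ift88 silencing.

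The last comparison asked whether the pathway differed when Ift88 was silenced. Ift88 itself (chromosome 14, 57424062 to 57517936) stood at 4.21, 4.08, 4.15 and 4.12 TPM in control replicates 1 to 4 and at 1.71, 1.27, 1.28 and 0.917 TPM in Ift88 siRNA replicates 1 to 4. The silenced libraries held 0.313 times the control mean and did not overlap the controls, with a log2 fold change of -1.17 (SE 0.13, limma adjusted p = 0.00212). Silencing was therefore visible in every library labelled as silenced.

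No member was called after silencing (0 of 10), while 0.223% of all 11209 genes tested were (25 genes). The change was negative in 9 of 10 members, beside 5045 of 11209 genes, with a median of -0.09 beside 0.02 over all genes. Of the 10 members, 2 were under 0.05 before adjustment and lower, against 4.91% of all genes. The groups overlapped for all 10 members, whereas 8.58% of all genes had groups that did not overlap.

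Hmox1 stood at 248, 318, 279 and 329 TPM in control replicates 1 to 4 and at 250, 240, 203 and 210 TPM in Ift88 siRNA replicates 1 to 4. Control replicate 1 was the only control within the range of the silenced libraries. The silenced mean was 0.768 times the control mean (226 ± 22.5 against 294 ± 37.1 TPM, n = 4 each), with a log2 fold change of -0.38 (SE 0.09, 95% interval -0.58 to -0.17, limma adjusted p = 0.0978). Hmox1 was the most abundant of the 10 genes in the control siRNA libraries, above Txnrd1 at 189 ± 16.5 TPM, with no overlap between them. In the flow experiment the order of these genes was the opposite, but the tables were made separately and no test joins them.

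Gclm stood at 67.2, 46.3, 77.9 and 56.1 TPM in control replicates 1 to 4 and at 43.1, 39.4, 54.5 and 36.5 TPM in Ift88 siRNA replicates 1 to 4. The groups overlapped because control replicate 2 lay below Ift88 siRNA replicate 3. The silenced mean was 0.701 times the control mean, with a log2 fold change of -0.49 (SE 0.15, 95% interval -0.82 to -0.17, limma adjusted p = 0.178). Its partner subunit Gclc ran from 11.3 to 16.1 TPM in the controls and from 9.24 to 13.5 TPM after silencing, with a log2 fold change of -0.22 (SE 0.14, limma adjusted p = 0.501). With 1 library left out the change of Gclc ran from -0.31 to -0.11. In this table Gclm and Gclc both stood lower than in the flow experiment, a difference between tables that was not tested.

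**Figure D5:**
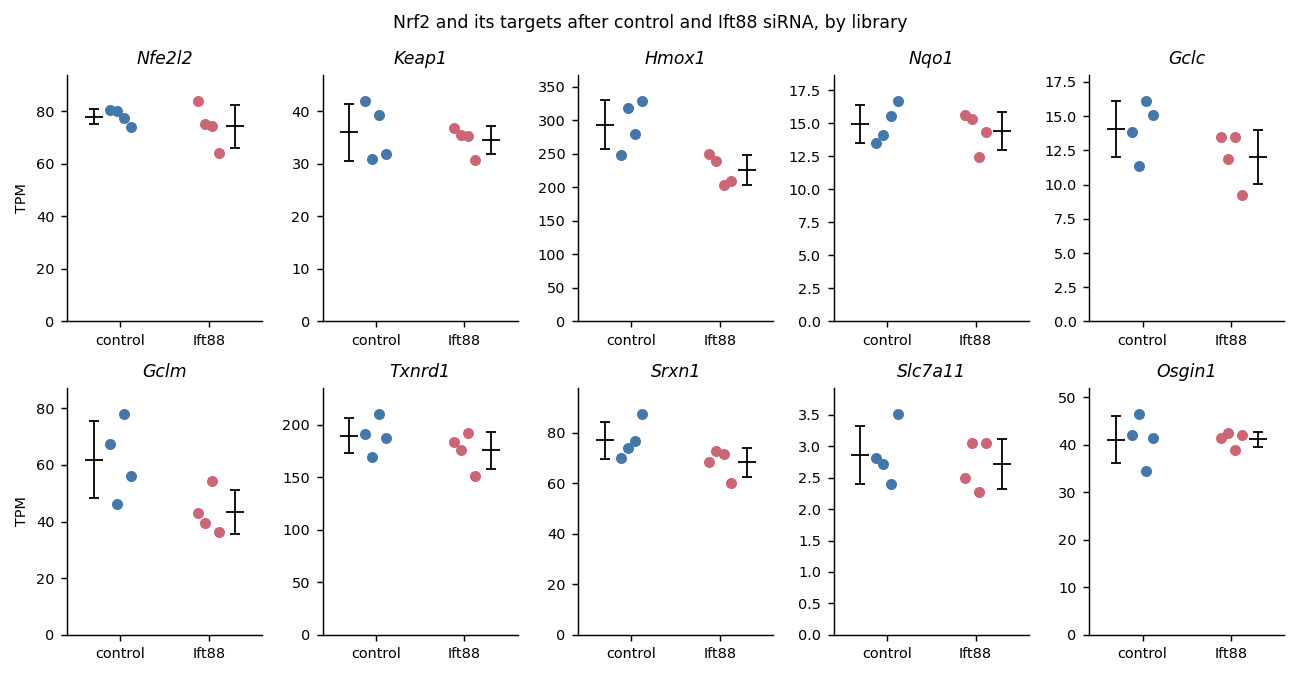
TPM of each gene (vertical axes, linear, from 0) in 4 control siRNA (blue) and 4 Ift88 siRNA (red) libraries, with the mean ± SD of each group as black bars. Hmox1 and Gclm are lower after silencing with overlapping groups, and the other genes differ by less.

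For the remaining members the intervals included 0. Srxn1 averaged 77.0 ± 7.36 TPM in the controls and 68.2 ± 5.63 TPM after silencing (log2 fold change -0.17, 95% interval -0.35 to 0.0075). Txnrd1 averaged 189 ± 16.5 and 176 ± 17.4 TPM (log2 fold change -0.11, SE 0.08). Nfe2l2 ran from 74.0 to 80.2 TPM in the controls and from 63.9 to 83.9 TPM after silencing (log2 fold change -0.07, SE 0.08), so any shift in the transcript of the regulator was within its error. Keap1 (36.0 ± 5.43 and 34.5 ± 2.65 TPM), Nqo1 (13.5 to 16.7 and 12.4 to 15.6 TPM) and Slc7a11 (2.86 ± 0.466 and 2.72 ± 0.398 TPM) each had a log2 fold change of -0.05. Osgin1 averaged 41.1 ± 4.90 and 41.2 ± 1.58 TPM, with a log2 fold change of 0.01 that was -0.01 after median of ratios scaling.

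None of the 97 related genes tested was called after silencing in limma, while 15 were under 0.05 before adjustment and higher (9.02% of all genes were) and 2 were lower (4.91% of all genes). Taldo1, a transaldolase of the pentose phosphate route to NADPH, passed the adjusted threshold (log2 fold change 0.37, SE 0.06, limma adjusted p = 0.0119) but was under 1.5-fold. Sesn1, a sestrin, and Fth1, the ferritin heavy chain that stores iron, had log2 fold changes of 0.42 and 0.39 that did not pass (limma adjusted p = 0.0978 and 0.217). Cbr1, a carbonyl reductase, was at 0.39 and Cyba, a subunit of NADPH oxidases, at 0.39, whereas Sod1, the cytosolic superoxide dismutase, was at -0.34 (limma adjusted p = 0.147, 0.0814 and 0.217). Gsta1 had the most negative value of the lists at -0.64 (SE 0.43), with a wide error. The list extremes with smaller changes were Bach2 at 0.21 and Ep300 at -0.24, Gstm1 at 0.29, Msra at -0.13, Tfrc at -0.20, Pgls at -0.13 and Ugdh at -0.10.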

How the data were processed

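Gene-level TPM for 12 libraries of the flow experiment and 8 of the silencing experiment were deposited as 2 separate tables by the authors, who per the labels' processing notes used fastp 0.20.0, FastQC 0.11.8, MultiQC 1.8 and kallisto 0.46.2. The study's methods name Trimmomatic for trimming and the Ensembl mouse transcriptome. TPM hold no read counts, so no count model was used, and the depth of each library is unknown (the study's methods give only a mean over samples). Genes averaging at least 1 TPM in a table were tested on log2(TPM + 1) with limma 3.58.1 (R 4.3.3, trended empirical Bayes), with Benjamini-Hochberg adjustment over all genes tested. A call required an adjusted p under 0.05 and more than 1.5-fold. Fold changes on this scale understate those of low genes. Labels do not say that replicates were separate cultures, so p-values measure the spread between these libraries, which may be technical. Equally numbered flow and static libraries correlated in their deviations from group means (0.294 to 0.662), so a replicate block was also fitted. Flow replicate 3 correlated best with static replicate 1, and every other flow library with the static library of its own number. These deviations also hold the difference between the replicate sets. The whole table entered each fit and only the pathway's genes are printed. Members, lists and the split by replicate number were chosen with earlier results of these data known. Named genes are the 10 members, the largest and smallest change of each related list, called list genes, and the 5 genes nearest to the member with the largest change. The fits were run on simulated data with known changes and independent noise, which does not show how they behave on libraries that correlate by replicate number. In bulk libraries fewer cells of a type and less RNA per cell cannot be told apart. Columns of no sample were absent (0 left out), and no 2 libraries were identical. Gene positions are from GENCODE M21 on GRCm38, matched by Ensembl identifier, and may differ from the build behind the TPM. Promoter windows are from RefSeq (GRCm38.p6).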

Additional observations from a re-analysis of the deposited data

Results flagged for a closer look

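The value of Nqo1 in static replicate 6 (32.8 TPM) was far above the other static libraries, of which the next highest had 21.4 TPM. Txnrd1 in flow replicate 2 (368 TPM) was far below the other flow libraries, of which the next lowest had 495 TPM, and Slc7a11 in static replicate 5 (0.425 TPM) was far below the other static libraries. These were the 3 groups with an outlying library among 40 checked by Dixon's criterion, and chance gives about 1 in 20.

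The response of Srxn1 to flow was negative in each of pairs 1 to 3 and positive in each of pairs 4 to 6, a difference of 0.40 on the log2 scale (95% interval 0.02 to 0.78). Tested as an interaction in limma it had an unadjusted p of 0.0405 and an adjusted p of 1.00, and with the replicate block 0.00528 and 0.636. Srxn1 was flagged for its change of sign between the sets, so these p-values belong to a gene picked by its values. How many of all genes share that change of sign was not counted. What separates the replicate sets was not tested.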

How the results depend on the processing

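No member was called, under flow or after silencing, in any alternative run, and Hmox1 kept its direction in all of them (log2 fold change 0.13 to 0.60 under flow and -0.45 to -0.32 after silencing). The number of genes called under flow was 12 as reported. It was 2 without a filter on low TPM, 28 with median of ratios scaling, 86 with library weights, 68 with the replicate block, 0 with flow replicate 6 as static, 5 within replicates 1 to 3, 56 within replicates 4 to 6, and 5 (without flow replicate 4) to 87 (without flow replicate 2) with 1 library left out. After silencing it was 25 as reported, 6 without the filter, 48 with library weights, 71 without a fold threshold and 11 to 23 with 1 library left out. Equally numbered silencing libraries correlated by 0.0464, 0.00276, 0.259 and 0.176, which are not all above 0.1, so the numbers were not taken as pairing those libraries, though silenced replicates 3 and 4 correlated best with the control of their own number. The replicate block there gave 44 genes and an adjusted p of 0.021 for Gclm, which stayed under 1.5-fold. Among small changes under flow, Nfe2l2 turned to -0.0068 with library weights, Nqo1 to 0.0126 with scaling, 0.0819 with weights and between -0.096 and 0.112 with 1 library left out, and Gclc (0.0347), Gclm (0.0377) and Srxn1 (-0.0725) turned with flow replicate 6 as static. Srxn1 was -0.132 within replicates 1 to 3 and -0.0075 to 0.133 with 1 library left out. After silencing, leaving out 1 library gave -0.116 to 0.0267 for Keap1, -0.0929 to 0.0167 for Nqo1, -0.11 to 0.0248 for Slc7a11 and -0.0676 to 0.0709 for Osgin1, which was -0.0116 with scaling and -0.0131 with weights. The causes were not tested. Alternatives for the split by replicate number were chosen after seeing the data: 1 member was called between the replicate sets and 0 in the interaction in each, also with the replicate block for the interaction and on pair means for the replicate sets, where the genes called fell from 416 to 10. Without read counts, counting error could not be given, and precision rests on the number of libraries.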
